A study of Mus musculus with 7 samples.

Results

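The genes described here are 31 genes of fatty acid oxidation in mitochondria and peroxisomes, listed by symbol. All but Pex11a, a membrane protein that divides peroxisomes, encode enzymes or carriers. All 31 are among the 16019 genes of the deposited tables. They were measured by RNA sequencing of 7 mouse prostate samples, all from animals immunised so as to develop experimental autoimmune prostatitis (EAP), in which the gland becomes inflamed. LIT-927, a neutraligand of the chemokine CXCL12 that keeps it from acting on its receptors, was injected into the peritoneum at 25 mg/kg per day for 4 of the samples. The other 3 samples had the solvent alone, methyl-β-cyclodextrin, which is referred to as vehicle. Both groups had the disease model and both were injected for 14 days. The labels used here give no strain, sex or age. The labels number the LIT-927 replicates 1 to 4 and the vehicle replicates 1, 3 and 4, and do not say that each is a separate animal, so the p-values reflect only how far these samples spread, and that spread could be technical.

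Fatty acids are first joined to coenzyme A, and the carnitine shuttle then carries long-chain acyl groups into the mitochondrion, a step that malonyl-CoA restrains. There each turn of beta-oxidation removes an acetyl unit through a dehydrogenase, a hydratase, a second dehydrogenase and a thiolase, with electrons from the first step leaving through the electron transfer flavoprotein. Peroxisomes run a parallel set of reactions on very long and branched chains and pass the shortened products on. Nuclear receptors of the PPAR and ERR families are known to drive many of these genes, and PPARγ stands in the title of the study.

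Levels are in FPKM, which divides a gene's fragments by its length and by the library's total. Comparisons between genes therefore rest on the gene lengths the authors used, which the sources do not give. Depth was even, with 32023785 to 35240765 fragments per library. FPKM are shares of a library, and the libraries were not alike in what filled them. The 8 seminal vesicle secretion markers summed to 142402 to 301495 FPKM in LIT-927 libraries and to 51017, 273784 and 563781 FPKM in vehicle replicates 1, 3 and 4. Most other genes were low in vehicle replicate 4, whose median-of-ratios factor was 0.663, and high in vehicle replicate 1, whose factor was 1.30. Factors of the LIT-927 libraries ran from 0.811 to 1.16. Each comparison is therefore given on FPKM as deposited and on FPKM divided by these factors, called scaled FPKM. Pbsn, the probasin gene that marks mouse prostate epithelium, was at 129 to 8963 FPKM in LIT-927 libraries and 1283 to 11311 FPKM in vehicle libraries. In bulk tissue, fewer cells of a type and less RNA per cell cannot be told apart.

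As a group the oxidation genes stood slightly higher in LIT-927 libraries. On FPKM as deposited, the median difference was smaller than the spread of the library medians within the groups (pooled SD 0.34). The mean difference in log2(FPKM + 1), LIT-927 minus vehicle, was above 0 for 28 of 31 genes, where 55.5% of all genes were above 0. The median difference was 0.25 over the 31 genes and 0.02 over all genes. On scaled FPKM, 27 of 31 were above 0, against 50.3% of all genes, with medians of 0.20 and 0.001. None of the 31 passed the test across all genes (limma, Benjamini-Hochberg adjusted p from 0.998 to 0.999), and 0% of the 16019 genes did. At an unadjusted p under 0.05, 1 of the 31 was higher and 0 were lower, where 0.718% of all genes were higher and 2.96% lower at that threshold. No oxidation gene had all LIT-927 libraries above, or all below, every vehicle library in FPKM, while 1.08% of all genes had all LIT-927 libraries above and 2.12% had all below.

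Much of that direction rested on a single library. Vehicle replicate 4 held the lowest value of 27 of the 31 genes, and the other 4, Acsl1, Cpt2, Acadsb and Ehhadh, were lowest in LIT-927 replicate 3. Relative to each gene's mean over the 7 libraries on the log2(FPKM + 1) scale, the median oxidation gene was at 0.26, 0.10, -0.16 and 0.12 in LIT-927 replicates 1 to 4 and at 0.23, 0.09 and -0.69 in vehicle replicates 1, 3 and 4. All genes with a mean of at least 1 FPKM followed the same course, at 0.14, 0.01, -0.21 and 0.17 after LIT-927 and 0.28, 0.07 and -0.49 after vehicle. Without vehicle replicate 4, only 12 of 31 genes were higher after LIT-927, and the median difference turned to -0.04. Scaling took most of that library's shift away. On scaled values the median oxidation gene was at 0.10, 0.09, 0.12 and -0.08 in LIT-927 replicates 1 to 4, against -0.12, -0.003 and -0.16 in vehicle replicates 1, 3 and 4. LIT-927 replicate 4 thus lay among the vehicle libraries. Without vehicle replicate 4 on scaled values, 24 of 31 genes were higher and the median difference was 0.17.

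**Figure D1:**
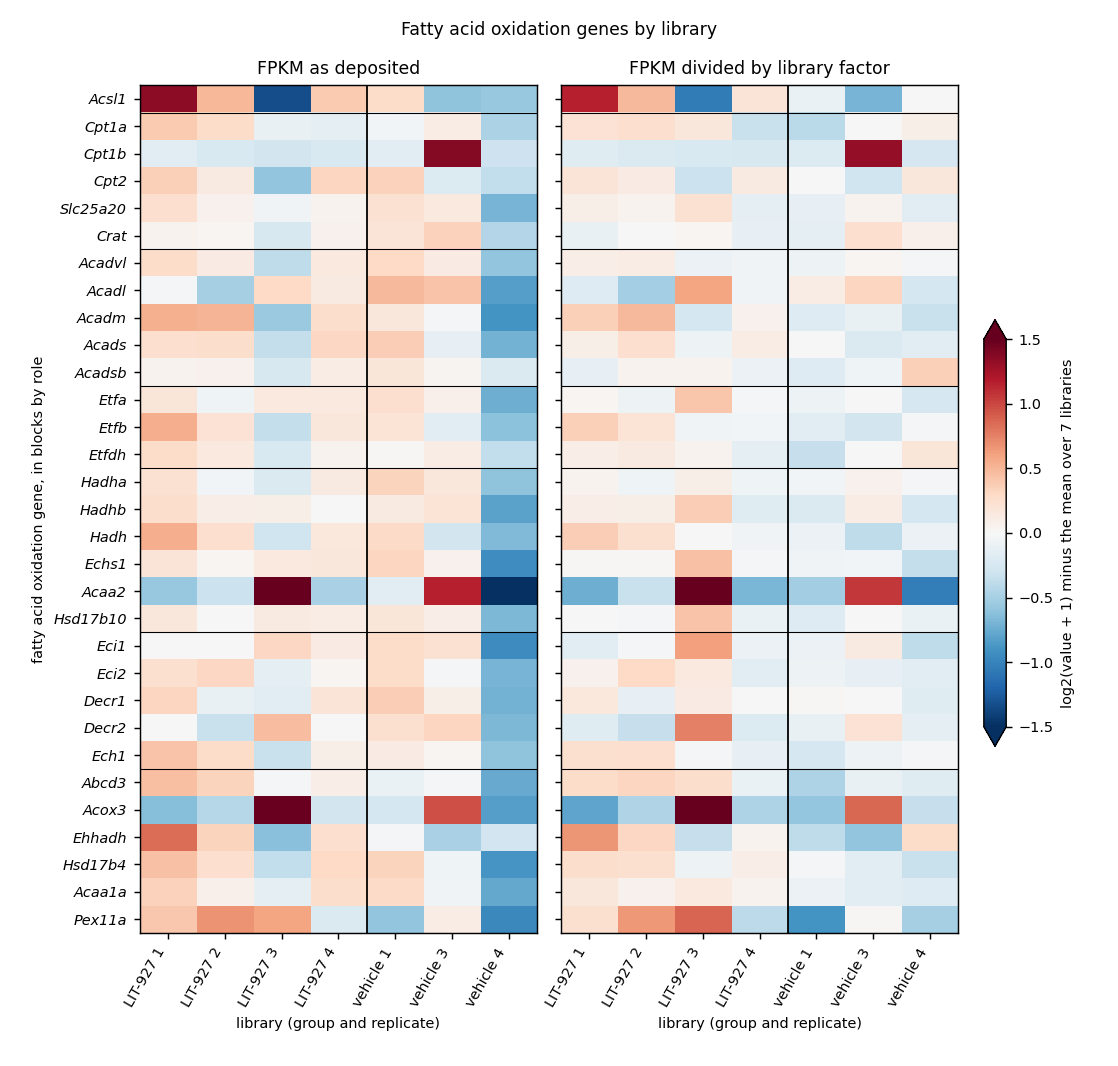
Each row is an oxidation gene, in blocks by role, and each column a library, with the 4 LIT-927 libraries left of the line and the 3 vehicle libraries right of it. Colour gives log2(value + 1) minus the gene's mean over the 7 libraries, for FPKM as deposited (left) and scaled FPKM (right). The column of vehicle replicate 4 is low for all 31 genes as deposited and mixed after scaling, while Acaa2 and Acox3 are high in replicate 3 of both groups.

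Acsl1, the acyl-CoA synthetase that activates long-chain fatty acids for oxidation and storage, was at 73.4, 40.6, 10.7 and 37.8 FPKM in LIT-927 replicates 1 to 4, against 34.6, 18.4 and 18.9 FPKM in vehicle replicates 1, 3 and 4. The highest and the lowest of the 7 values were both LIT-927 libraries, so the groups overlapped fully. LIT-927 minus vehicle came to 0.52 in log2(FPKM + 1), with an SE of 0.59 and a 95% interval of -0.85 to 1.89.

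In the carnitine shuttle, 3 of 5 genes had a higher mean after LIT-927 and 2 a lower one. Cpt1a, the liver-type carnitine palmitoyltransferase that malonyl-CoA inhibits, was at 21.7, 19.9, 15.0 and 14.8 FPKM after LIT-927 and 15.8, 17.7 and 11.5 FPKM after vehicle. The 2 highest values were LIT-927 libraries and the lowest was vehicle replicate 4. Slc25a20, the carnitine-acylcarnitine translocase, was at 13.1, 11.4, 10.4 and 11.3 FPKM after LIT-927 and 12.9, 12.1 and 6.33 FPKM after vehicle. Cpt2, which rebuilds acyl-CoA on the matrix side, was at 13.9, 11.8, 6.75 and 13.5 FPKM after LIT-927 and 13.8, 9.06 and 8.02 FPKM after vehicle. For both genes the groups covered nearly the same range, apart from the low value of vehicle replicate 4 for Slc25a20 and that of LIT-927 replicate 3 for Cpt2. Crat, carnitine acetyltransferase, which buffers acetyl-CoA, was at 9.29, 9.11, 7.42 and 9.40 FPKM after LIT-927 and 10.4, 11.7 and 6.30 FPKM after vehicle, a difference of -0.06 in log2(FPKM + 1) (SE 0.24).

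Cpt1b, the muscle-type isoform of the same transferase, was nearly silent in all but one library. It was at 0.169, 0.116, 0.0861 and 0.119 FPKM after LIT-927, resting on 16, 11, 8 and 12 fragments, against 0.164, 2.42 and 0.0587 FPKM after vehicle, on 16, 237 and 6 fragments. Exons of Cpt1b overlap another annotated gene on the same strand, and the sources used here do not say how fragments there were counted. Only vehicle replicate 3 stood out, and the difference of -0.53 (SE 0.37) became 0.02 without it. A transcript of fast skeletal muscle was high in that same library. Mylpf, a myosin light chain of fast fibres, was at 0.758 to 1.86 FPKM after LIT-927, against 89.3 FPKM in vehicle replicate 3 and 0.526 and 1.36 FPKM in the other vehicle libraries. All 10 skeletal muscle markers were measured, 3 of them at 0 in at least 1 library. They summed to 94.7 to 615 FPKM after LIT-927 and to 934, 1343 and 312 FPKM in vehicle replicates 1, 3 and 4. The sum was thus also high in vehicle replicate 1, where Cpt1b was at 0.164 FPKM. The part of skeletal muscle in the Cpt1b value was not tested. Cpt1a was thus the carnitine palmitoyltransferase 1 transcript that every library carried at a level above 10 FPKM.

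The acyl-CoA dehydrogenases, which start each turn on chains of different length, were 4 of 5 higher after LIT-927 by the mean, with a median difference of 0.10. Acadm, the medium-chain enzyme, had the largest difference of the 5. It was at 42.3, 41.5, 19.4 and 34.9 FPKM after LIT-927 and 32.7, 28.6 and 15.0 FPKM after vehicle, a difference of 0.43 (SE 0.36, 95% interval -0.41 to 1.27). The 3 highest values were LIT-927 libraries, and LIT-927 replicate 3 lay below 2 vehicle libraries. Acadvl, the very-long-chain enzyme bound to the inner membrane, was at 34.3, 30.9, 21.5 and 31.3 FPKM after LIT-927 and 34.8, 30.8 and 18.3 FPKM after vehicle, which overlap throughout. Acadl, the long-chain enzyme, ran at 24.4, 17.3, 30.7 and 27.4 FPKM after LIT-927 and 34.9, 33.5 and 13.5 FPKM after vehicle. Here the order of the libraries was another one: LIT-927 replicate 2 was low and replicate 3 the highest of its group. Acads, the short-chain enzyme, ranged from 12.6 to 20.6 FPKM after LIT-927 and 9.70 to 21.5 FPKM after vehicle. Acadsb, which acts on short branched chains and belongs mainly to isoleucine breakdown, averaged 38.9 ± 4.2 FPKM (SD, n = 4) after LIT-927 and 39.0 ± 5.4 FPKM (SD, n = 3) after vehicle.

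The electron transfer flavoprotein takes the electrons of these dehydrogenases and hands them to its membrane oxidoreductase. Etfdh, that oxidoreductase, was at 21.4, 19.5, 14.8 and 18.3 FPKM after LIT-927 and 17.7, 19.0 and 13.3 FPKM after vehicle. The groups overlapped, and the difference was 0.15 (SE 0.21). The flavoprotein's 2 subunits were listed at unequal levels: Etfb averaged 115 ± 28 FPKM after LIT-927 and 91.0 ± 25.6 FPKM after vehicle, the highest mean of all 31 genes over the 7 libraries, while Etfa averaged 6.52 ± 0.55 and 5.64 ± 2.15 FPKM (SD, n = 4 and 3). The length behind the FPKM of Etfa was 10.7 times that behind Etfb, as fragments divided by FPKM show. In fragments, Etfb had 1.1 to 2.0 times as many as Etfa in LIT-927 libraries and 1.3 to 1.9 times as many in vehicle libraries, so most of the gap in FPKM is that of length. Exons of Etfb overlap further annotated transcripts on the same strand, and the sources used here do not say how such fragments were counted.

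All 6 genes from the hydratase to the thiolase had a higher mean after LIT-927, with a median difference of 0.29. Hadha and Hadhb encode the subunits of the mitochondrial trifunctional protein, which performs the last 3 steps on long chains. They lie head to head on chromosome 5, and the stretch between their GENCODE starts, 85 bases at chr5:30155163-30155247 of mm10, is shown because both genes are read outward from it. It is written on the plus strand, 5′ to 3′ toward Hadhb, from RefSeq (GRCm38.p6), with GC boxes (GGGCGG, either strand) in capitals.
Hadha-Hadhb: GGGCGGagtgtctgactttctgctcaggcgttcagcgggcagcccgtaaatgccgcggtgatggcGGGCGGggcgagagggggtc
Hadha was at 46.4, 38.2, 34.0 and 43.5 FPKM after LIT-927 and 49.9, 44.4 and 25.5 FPKM after vehicle. Hadhb was at 15.5, 13.8, 13.6 and 12.8 FPKM after LIT-927 and 14.1, 14.9 and 6.92 FPKM after vehicle. The FPKM of Hadha was 2.49 to 3.39 times that of Hadhb in LIT-927 libraries and 2.98 to 3.69 times in vehicle libraries. In fragments Hadha had 1.5 to 2.0 times as many as Hadhb in LIT-927 libraries and 1.8 to 2.2 times as many in vehicle libraries, with a length behind Hadhb that was 1.70 times as great. After scaling, Hadha was the steadiest of all 31 genes, between 37.7 and 41.9 after LIT-927 and between 38.3 and 41.3 after vehicle, and its difference was 0.01 (95% interval -0.18 to 0.19).

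Echs1, the short-chain enoyl-CoA hydratase, was at 45.0, 40.0, 43.2 and 44.3 FPKM after LIT-927 and 49.0, 40.9 and 20.1 FPKM after vehicle. Hadh, the hydroxyacyl-CoA dehydrogenase for medium and short chains, was at 63.1, 51.5, 34.7 and 48.0 FPKM after LIT-927 and 52.6, 35.3 and 26.8 FPKM after vehicle. As deposited, Echs1 kept within a narrow range across LIT-927 libraries, whereas Hadh spread widely in both groups. This contrast was gone on scaled values, where the SD over LIT-927 libraries was 7.09 for Echs1 and 6.71 for Hadh. Hsd17b10, a mitochondrial hydroxyacyl-CoA dehydrogenase that also serves in tRNA processing, ranged from 48.6 to 55.1 FPKM after LIT-927 and 30.2 to 55.5 FPKM after vehicle.

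Acaa2, the mitochondrial 3-ketoacyl-CoA thiolase, varied more than any other of the 31 genes on the scaled log2 values. It was at 29.7, 35.3, 176 and 31.5 FPKM in LIT-927 replicates 1 to 4, against 39.7, 101 and 14.0 FPKM in vehicle replicates 1, 3 and 4. Replicate 3 of each group was far above the rest, and the difference between groups was 0.35 with an SE of 0.81. Acox3, a peroxisomal acyl-CoA oxidase for branched chains, followed the same libraries, at 4.08, 4.87, 21.2 and 5.53 FPKM after LIT-927 and 5.62, 14.5 and 3.47 FPKM after vehicle. Decr2 and Eci1 were also highest in LIT-927 replicate 3, at 22.1 FPKM for Decr2 and 39.4 FPKM for Eci1. Acsl1 and Ehhadh ran the other way: Ehhadh was lowest in the replicate 3 libraries, at 12.1 FPKM after LIT-927 and 13.4 FPKM after vehicle, and Acsl1 was at its lowest there as well, at 10.7 and 18.4 FPKM.

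Other transcripts set these 2 libraries apart as well. Upk1a, a uroplakin made by urothelium, stood at 253 FPKM in LIT-927 replicate 3, against 6.64 to 10.1 FPKM in the other LIT-927 libraries, and at 172 FPKM in vehicle replicate 3, against 2.64 and 9.78 FPKM in the other vehicle libraries. The 6 urothelial markers, of which 1 was at 0 in some library, summed to 29.3 to 330 FPKM after LIT-927 and 26.8 to 267 FPKM after vehicle. The 9 luminal prostate markers, none at 0 in any library, summed to 6409.6 to 166391 FPKM after LIT-927 and 10054 to 74657 FPKM after vehicle, each maximum again in replicate 3. The part of these cells in the Acaa2, Acox3, Acsl1 and Ehhadh values was not tested. Without both replicate 3 libraries, all 31 genes had a higher mean after LIT-927 and the median difference was 0.40, still with 0 genes called by limma.

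**Figure D2:**
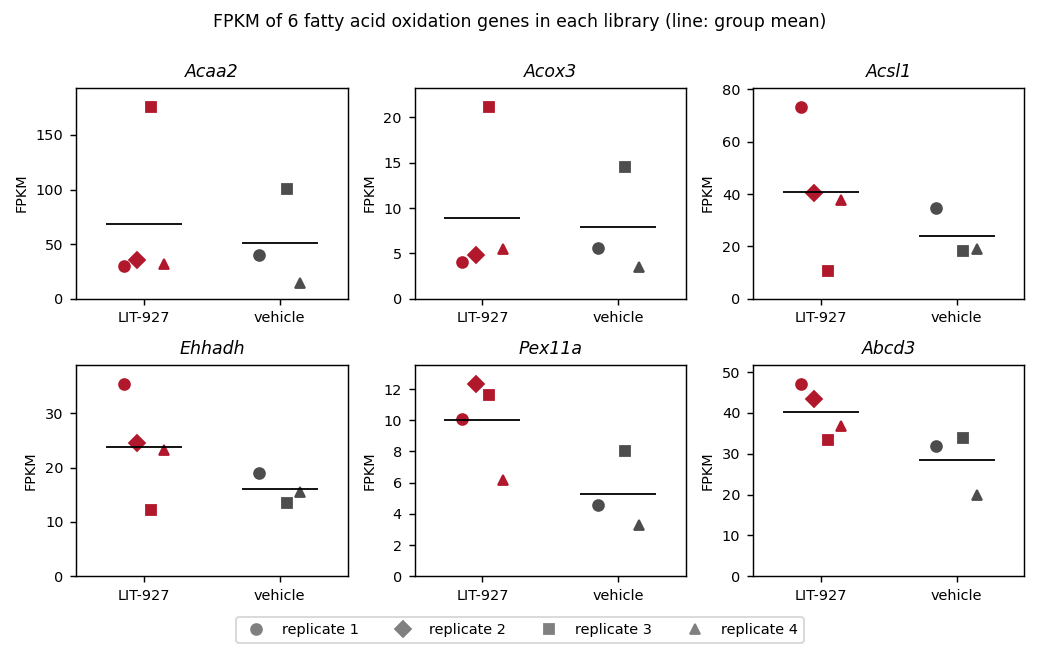
Each panel gives the FPKM of an oxidation gene in the 4 LIT-927 libraries (left, red) and the 3 vehicle libraries (right, grey), with symbols for the replicate number and a line at each group mean. Acaa2 and Acox3 peak in replicate 3 of both groups (176 and 101 FPKM for Acaa2), Acsl1 and Ehhadh are lowest there, and Pex11a and Abcd3 lie mostly higher in LIT-927 libraries with overlap.

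The auxiliary enzymes reshape unsaturated chains so that they can enter the cycle, and all 5 had a higher mean after LIT-927, with differences from 0.07 to 0.26. Decr1, the mitochondrial 2,4-dienoyl-CoA reductase, was at 14.3, 10.3, 9.95 and 13.0 FPKM after LIT-927 and 14.8, 12.0 and 6.47 FPKM after vehicle, so that the groups covered much the same range. Its peroxisomal counterpart Decr2 averaged 16.4 ± 4.1 FPKM after LIT-927 and 16.1 ± 5.7 FPKM after vehicle. The enoyl-CoA isomerases averaged 34.2 ± 3.7 and 30.5 ± 12.6 FPKM for Eci1, and 12.7 ± 1.9 and 10.8 ± 3.8 FPKM for Eci2, LIT-927 before vehicle. Ech1, a dienoyl-CoA isomerase, was the most abundant of the 5, at 103 ± 22 FPKM after LIT-927 and 86.4 ± 22.1 FPKM after vehicle (SD, n = 4 and 3).

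The 6 genes grouped as peroxisomal had the highest median difference of the roles with more than 1 gene, at 0.41 as deposited and 0.35 on scaled values. All 6 had a higher mean after LIT-927. This ranking depends on the grouping: the peroxisomal Decr2, counted with the auxiliary enzymes, had a difference of 0.07 as deposited and 0.02 scaled. Pex11a, a membrane protein that elongates and divides peroxisomes and responds to PPARα in rodents (mm10 chromosome 7, 79735957 to 79743131, minus strand), was at 10.1, 12.3, 11.6 and 6.19 FPKM after LIT-927 and 4.55, 8.05 and 3.26 FPKM after vehicle. The 3 highest values were LIT-927 libraries, while LIT-927 replicate 4 lay below vehicle replicate 3. Its mean was 1.90 times that of vehicle, and the difference of 0.85 (SE 0.34, 95% interval 0.06 to 1.63) was the largest of the 31 genes. It had the only unadjusted p under 0.05, and its limma adjusted p was 0.998. On scaled values the interval included 0 (difference 0.80, -0.04 to 1.64), and the difference stayed between 0.58 and 1.05 without any one library.

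Abcd3, the transporter PMP70 that brings branched and long-chain acyl groups into peroxisomes (chromosome 3, 121758774 to 121815302, minus strand), was at 47.0, 43.3, 33.5 and 36.7 FPKM after LIT-927 and 31.9, 33.9 and 19.9 FPKM after vehicle. The groups overlapped only in that LIT-927 replicate 3 lay just under vehicle replicate 3. The difference was 0.50 (SE 0.24; limma adjusted p = 0.998). Ehhadh, the bifunctional hydratase-dehydrogenase that also oxidises dicarboxylic acids, was at 35.4, 24.5, 12.1 and 23.2 FPKM after LIT-927 and 19.0, 13.4 and 15.6 FPKM after vehicle. All but LIT-927 replicate 3 were above every vehicle library. Hsd17b4, the multifunctional enzyme for very long and branched chains, was at 31.2, 27.3, 17.4 and 28.3 FPKM after LIT-927 and 28.9, 21.8 and 11.9 FPKM after vehicle. Acaa1a, the peroxisomal thiolase, was at 46.7, 38.6, 32.8 and 43.8 FPKM after LIT-927 and 44.6, 35.1 and 21.0 FPKM after vehicle, which overlap. Its near-identical neighbour Acaa1b was at 0.0273 to 0.932 FPKM after LIT-927 and 0.0759 to 1.11 FPKM after vehicle, and fragments that fit both copies may have been split or dropped.

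**Figure D3:**
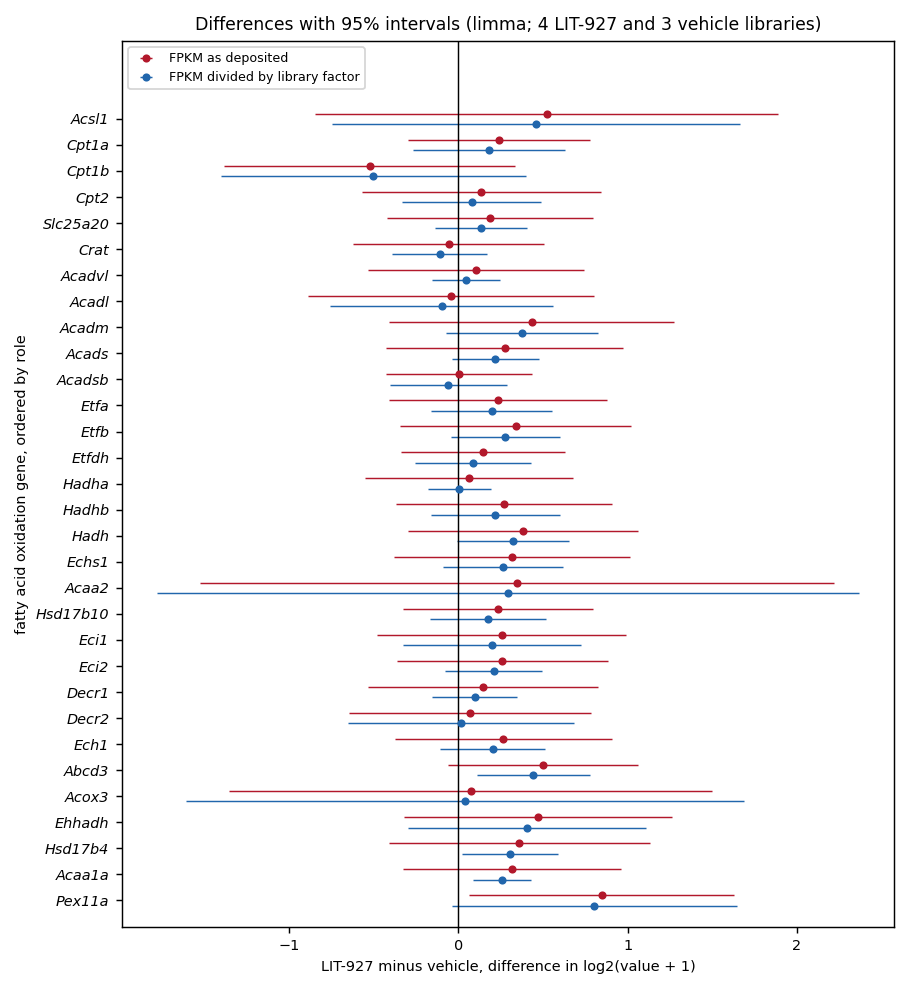
For each oxidation gene, ordered by role from top to bottom, the points give the difference LIT-927 minus vehicle in log2(value + 1), and the bars its 95% interval from limma, on FPKM as deposited (red) and on scaled FPKM (blue). On deposited values every interval but that of Pex11a (0.06 to 1.63) includes 0, and on scaled values those of Abcd3, Hsd17b4 and Acaa1a lie above 0.

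With the library factors divided out, 4 genes had every LIT-927 library above every vehicle library: Abcd3, Acaa1a, Hadh and Echs1. None had the reverse. Among all genes, 4.04% were separated upward in this way and 4.99% downward. Abcd3 stood at 41.4, 42.8, 41.3 and 31.8 scaled FPKM after LIT-927 and at 24.5, 31.5 and 30.0 after vehicle, a gap of well under 1 unit between LIT-927 replicate 4 and vehicle replicate 3. Acaa1a was at 41.1, 38.1, 40.5 and 37.9 after LIT-927 and at 34.2, 32.6 and 31.7 after vehicle, the clearest separation of the 4. Hadh was at 55.6, 50.9, 42.8 and 41.5 after LIT-927 and at 40.4, 32.8 and 40.5 after vehicle. Echs1 was at 39.6, 39.5, 53.3 and 38.3 after LIT-927 and at 37.6, 38.1 and 30.3 after vehicle, a gap of well under 1 unit between LIT-927 replicate 4 and vehicle replicate 3. At an unadjusted p under 0.05, 3 of the 31 genes were higher on scaled values and 0 were lower, where 2.92% and 5.51% of all genes were. They were Acaa1a (difference 0.26, 95% interval 0.08 to 0.43), Abcd3 (0.44, 0.11 to 0.78) and Hsd17b4 (0.30, 0.02 to 0.59), all peroxisomal. Their limma adjusted p over all genes was 0.568 for Acaa1a, 0.573 for Abcd3 and 0.582 for Hsd17b4. Without any one library, the scaled difference stayed between 0.23 and 0.28 for Acaa1a, 0.34 and 0.54 for Abcd3 and 0.23 and 0.37 for Hsd17b4. Exons of Acaa1a overlap those of Myd88, a signalling adaptor of Toll-like receptors, on the opposite strand, and those of Echs1, Crat, Acadvl and Etfdh likewise overlap a measured gene on the other strand. The strand setting of the counting is not given in the sources used here, so fragments from the overlaps cannot be assigned.

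Start-site regions were matched by symbol in a RefSeq table (GRCm38.p6) for 26 of the 31 genes, as 28 windows of 300 bases from 250 before to 50 after a start, and searched on both strands for 8 short motifs. The GC box GGGCGG, a general promoter element bound by SP factors, was in 22 of 28 windows (78.6%), where 57.2% of the 15947 windows of measured genes and 35.7% of all 32851 windows hold it. The half-site AGGTCA, which nuclear receptors recognise, was in 4 windows, those of Acadm, Acadvl, Cpt1a and Echs1 (14.3%), against 13.1% of measured genes and 16.3% of all. A direct repeat of that half-site with 1 free base between the copies, the classical form of a PPAR element, was in 0 windows and in 0.0376% of those of measured genes. The ERR element TCAAGGTCA, which also contains the half-site, was in 0, against 0.270%. The cAMP element TGACGTCA (2.72% of measured genes) and the E-box CACGTG (9.11%) were in 0 windows too. The core of the NRF1 motif, GCGC repeated after 2 free bases, was in 3 (10.7%, against 11.0% of measured genes) and CCAAT in 10 (35.7%, against 37.2%). These are counts of letters in short windows and say nothing about binding. The windows of Hadha and Hadhb overlap, and Abcd3 and Acsl1 each have more than a single window.

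The parts of these windows that lie upstream of the RefSeq start and outside annotated exons are shown for the 4 genes separated after scaling, with GC boxes and half-sites in capitals, so that their unlike make-up can be seen. All are 5′ to 3′ toward the gene. Abcd3 is at chr3:121815303-121815552 and Hadh at chr3:131272102-131272351, both on the minus strand. Acaa1a is at chr9:119341160-119341293 on the plus strand, and Echs1 at chr7:140116477-140116671 on the minus strand.
Abcd3: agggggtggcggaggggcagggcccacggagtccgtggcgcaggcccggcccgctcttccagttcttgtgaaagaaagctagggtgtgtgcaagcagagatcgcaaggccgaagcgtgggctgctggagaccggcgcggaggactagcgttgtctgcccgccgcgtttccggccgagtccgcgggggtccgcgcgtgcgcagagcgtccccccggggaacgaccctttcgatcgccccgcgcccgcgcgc
Hadh: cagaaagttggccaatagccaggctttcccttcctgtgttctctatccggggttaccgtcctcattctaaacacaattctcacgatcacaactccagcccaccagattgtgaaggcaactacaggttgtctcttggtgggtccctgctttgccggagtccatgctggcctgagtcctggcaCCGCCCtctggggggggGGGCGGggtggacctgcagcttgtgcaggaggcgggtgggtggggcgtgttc
Acaa1a: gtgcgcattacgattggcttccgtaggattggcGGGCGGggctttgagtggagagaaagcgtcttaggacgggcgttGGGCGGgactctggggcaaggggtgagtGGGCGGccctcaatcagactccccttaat
Echs1: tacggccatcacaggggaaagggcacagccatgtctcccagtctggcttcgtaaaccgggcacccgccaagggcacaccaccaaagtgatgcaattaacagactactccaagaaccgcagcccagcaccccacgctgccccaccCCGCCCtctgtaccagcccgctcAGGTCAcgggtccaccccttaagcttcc
Abcd3 holds neither motif, Hadh and Acaa1a hold GC boxes, and Echs1 holds both. The half-sites of Acadvl (chr11:70015480-70015545, minus strand) and Cpt1a (chr19:3323177-3323242, plus strand) are shown in capitals with the bases around them, other motifs left in lower case.
Acadvl: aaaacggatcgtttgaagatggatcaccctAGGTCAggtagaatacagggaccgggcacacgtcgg
Cpt1a: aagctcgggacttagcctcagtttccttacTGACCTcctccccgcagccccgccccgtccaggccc

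Other genes around the pathway were counted in lists chosen by function. Of 29 further oxidation enzymes, carriers and synthetases, 19 were higher and 10 lower after LIT-927 as deposited, with a median difference of 0.12. On scaled values 17 were higher and 12 lower, with a median of 0.06. Ivd, isovaleryl-CoA dehydrogenase of leucine breakdown, had the smallest p among the higher ones, at 20.2 ± 1.9 FPKM after LIT-927 and 15.1 ± 5.7 FPKM after vehicle. Abcd2, a peroxisomal transporter for very long chains, had the smallest among the lower ones, at 0.0455 ± 0.0220 and 0.140 ± 0.086 FPKM. Genes of peroxisome assembly were higher in 14 of 15 as deposited (median 0.17) and in 13 of 15 on scaled values (0.12). Pex19, an import receptor for peroxisomal membrane proteins, averaged 24.4 ± 4.5 and 19.2 ± 6.1 FPKM. Pex26 was the lower one as deposited, at 5.15 ± 1.07 and 5.37 ± 1.19 FPKM. Citrate cycle genes were higher in 15 of 17 as deposited (median 0.09) and in 11 of 17 on scaled values (0.03), with Sdha at 67.8 ± 8.2 and 58.5 ± 18.3 FPKM and Fh1 at 31.8 ± 8.2 and 36.3 ± 16.0 FPKM. Nuclear respiratory chain subunits were higher in 19 of 20 as deposited (0.15) and in 17 of 20 on scaled values (0.09). Among these Cox6c was at 356 ± 130 and 255 ± 136 FPKM, and Uqcrc1 at 80.6 ± 9.7 and 81.5 ± 16.1 FPKM (all SD, n = 4 LIT-927 and 3 vehicle libraries).

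Regulators were split in direction, and most classical PPAR targets outside beta-oxidation had a lower mean after LIT-927. Of 13 measured transcriptional regulators, 6 were higher and 7 lower, with a median difference of -0.003. Ppara, the fatty acid receptor that drives these genes in liver, was at 0.876 ± 0.400 FPKM after LIT-927 and 0.769 ± 0.455 FPKM after vehicle. Its coactivator gene Ppargc1a was at 0.180 ± 0.097 and 0.158 ± 0.171 FPKM. Esrra, the receptor ERRα, was the more abundant, at 16.3 ± 2.0 and 17.2 ± 6.2 FPKM. Pparg was at 0.0724, 0.0272, 0.599 and 0.119 FPKM after LIT-927 and 0.184, 1.17 and 0.0838 FPKM after vehicle, highest in both groups in replicate 3, where Acaa2 and Acox3 were high and Acsl1 low. Nrip1, a corepressor of these receptors, was at 4.35 ± 1.09 and 3.22 ± 1.70 FPKM.

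Of 17 measured PPAR targets outside beta-oxidation, 11 were lower after LIT-927 and 6 higher, with a median difference of -0.29. Cd36, a fatty acid uptake receptor found on adipocytes, endothelium and macrophages, was at 0.830, 0.864, 1.42 and 2.47 FPKM after LIT-927 and 5.85, 7.36 and 1.25 FPKM after vehicle, lower in 2 of 4 LIT-927 libraries than in any vehicle library. Pdk4, which shuts pyruvate out of the citrate cycle, was at 0.979 ± 0.525 FPKM after LIT-927 and 1.91 ± 1.04 FPKM after vehicle. Plin5, which tethers lipid droplets to mitochondria, was at 0.685 ± 0.481 and 0.236 ± 0.228 FPKM. Of the 7 ketone body genes 5 were lower and 2 higher; Acat1, which joins acetyl units, was at 23.5 ± 4.5 and 19.4 ± 7.7 FPKM. Among 8 genes of malonyl-CoA control, 6 were higher as deposited and 4 on scaled values, with Prkab1, a subunit of AMP-activated kinase, at 36.0 ± 3.6 and 27.1 ± 11.9 FPKM, and Acaca, acetyl-CoA carboxylase, at 2.15 ± 0.60 and 2.38 ± 0.91 FPKM. In none of these lists did a gene pass the limma test, either on deposited or on scaled values (SD, n = 4 LIT-927 and 3 vehicle libraries).

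Markers of other cell types were summed in each library. Leukocyte markers were lower after LIT-927 in 6 of 7, summing to 65.3 to 187 FPKM against 181 to 545 FPKM after vehicle, with none at 0 in any library. Fibroblast markers were lower in 7 of 7, summing to 68.5 to 229 FPKM after LIT-927 and 86.1 to 470 FPKM after vehicle. Smooth muscle markers were lower in 6 of 6, with sums of 850 to 5616 FPKM after LIT-927 and 2793 to 9922 FPKM after vehicle. Adipocyte markers, which bear on Cd36, Plin5 and Pparg, were lower in 6 of 7, with sums of 5.63 to 8.99 FPKM after LIT-927 and 3.96 to 14.4 FPKM after vehicle, and 3 of them were at 0 in some library. The brown adipocyte markers measured, 3 of 5, summed to 0.405 to 1.19 FPKM after LIT-927 and 0.151 to 1.19 FPKM after vehicle. Vas deferens and epididymis markers, 6 of 8 measured, were higher in 5, with sums of 7199 to 19935 FPKM after LIT-927 and 5289 to 13593 FPKM after vehicle. The part of these cells in the oxidation gene values was not tested.

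**Figure D4:**
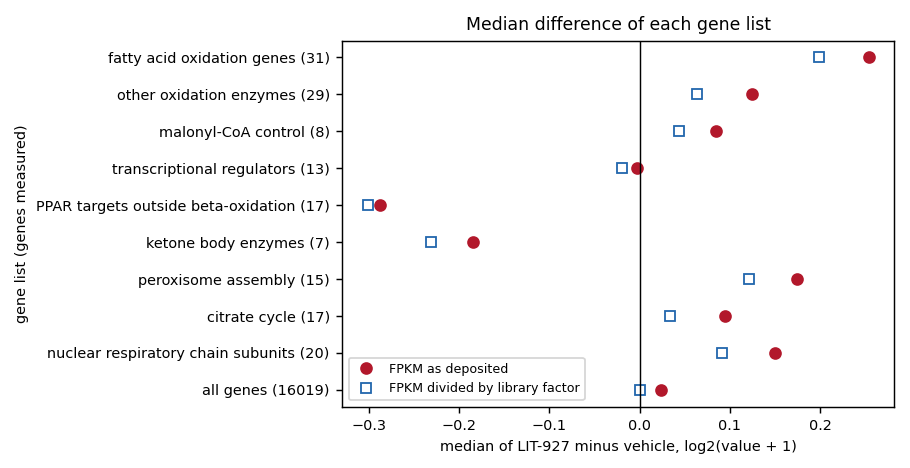
Points give the median difference, LIT-927 minus vehicle in log2(value + 1), of the oxidation genes and of each related gene list, with the number of genes measured in brackets, on FPKM as deposited (filled circles) and scaled FPKM (open squares). The oxidation genes lie at 0.25 and 0.20, all genes near 0, and the PPAR targets outside beta-oxidation at -0.29 and -0.30.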

How the data were processed

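Per the labels' protocols, TRIzol RNA of 4 LIT-927 and 3 vehicle prostate samples went into VAHTS libraries. The tools fastp, HISAT2 and HTSeq and the build mm10 come from the submitters' processing notes, while their versions, roles, annotation and strand setting are not given in the sources used. The authors deposited FPKM under a header that reads only as expression, and the unit was inferred from the numbers, which are whole multiples of a step set by gene and library. Whole fragments were recovered from these steps for all 16019 genes, within 0.01 fragments. Coordinates come from GENCODE M21, whose assembly is that of mm10.

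Differences, LIT-927 minus vehicle, were fitted over all 16019 genes and 7 libraries by limma 3.58.1 under R 4.3.3, with its trend option, on log2(FPKM + 1), with neither filter nor covariate. A gene counted as called below 0.05 after Benjamini-Hochberg adjustment. The scale understates changes of low genes. All 31 genes were in the test, and 30 of them averaged at least 1 FPKM, Cpt1b being the exception. Alternatives were a pseudocount of 0.1, a minimum mean of 1 FPKM, median-of-ratios and upper-quartile scaling, limma-voom on the recovered fragments, a replicate block, and leaving out libraries. In the fits that left out a library after scaling, factors were those of all 7 libraries.

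The members, lists and tests were chosen with earlier results of these data known. Values in every library are given for core enzymes of each role, for the 3 largest differences in each direction and for genes whose groups did not overlap. From other lists, the genes with the smallest p in each direction and a set of regulators and targets are named, mostly by mean and SD; some genes that this rule names are not reported here. Acaa2 and Acox3, Decr2 and Eci1, and the markers Mylpf and Upk1a were named after values were seen. The fit was tested on simulated data, but only with changes larger than any difference in log2(FPKM + 1) found for the 31 genes with all libraries kept. That test does not tell how often changes of the size seen here would be called. An absence of calls does not show that levels were alike. Tables were made in Python 3.11.15 using pandas 2.3.3 and NumPy 2.4.6, and figures using matplotlib 3.10.9.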

Additional observations from a re-analysis of the deposited data

Results flagged for a closer look

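Among the 31 oxidation genes, each tested in the 4 LIT-927 libraries, 4 had a library whose gap to its nearest neighbour exceeded Dixon's critical share of the group's range at the 95% level. Each time it was LIT-927 replicate 3. It was high for Acaa2 (176 FPKM) and Acox3 (21.2 FPKM), and low for Acads (12.6 FPKM) and Crat (7.42 FPKM). Chance alone is set to mark about 1 group in 20, and these genes share their libraries. The vehicle group, with 3 libraries, was too small for this rule. After scaling, Acads was at 15.5 and Crat at 9.15 in LIT-927 replicate 3, against 17.5 to 19.8 for Acads and 8.14 to 9.00 for Crat in the other LIT-927 libraries.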

How the results depend on the processing

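The count of genes called by limma was 0 in all 21 alternative fits, for all genes and for the 31 oxidation genes. An unadjusted p under 0.05 was reached by 0 to 8 of the 31. In the fit with 8, on scaled values without LIT-927 replicate 3, 1922 of all 16019 genes were under that threshold. In the fits with 0 of the 31, between 294 and 1334 of the 16019 were. Of 31 genes, 25 to 31 were higher in the fits that kept every library or left out both replicate 3 libraries, and 12 to 31 when libraries were left out one at a time, with 12 only without vehicle replicate 4. The median difference ran from -0.04 to 0.40 without one library, and that median minus the median of all genes from 0.078 (without vehicle replicate 4) to 0.29. The sign changed somewhere for 20 of the 31 genes, in 66 of 650 fitted values. With every library kept, Acadsb turned to -0.060 (median-of-ratios scaling), -0.084 (upper-quartile scaling) and -0.066 (voom), Hadha to -0.019 (upper-quartile scaling), Decr2 to -0.0077 (upper-quartile scaling) and -0.0098 (voom), and Acox3 to -0.0089 (voom). Without both replicate 3 libraries, Cpt1b was at 0.031, Crat at 0.17 and Acadl at 0.047. Leaving out one library at a time, on deposited or scaled values, gave ranges of -0.83 to 0.016 for Cpt1b, -0.051 to 0.35 for Cpt2, -0.11 to 0.35 for Slc25a20, -0.30 to 0.10 for Crat, -0.17 to 0.28 for Acadvl, -0.47 to 0.18 for Acadl, -0.0029 to 0.53 for Acads, -0.17 to 0.10 for Acadsb, -0.063 to 0.43 for Etfa, -0.060 to 0.24 for Etfdh, -0.22 to 0.25 for Hadha, -0.055 to 0.45 for Hadhb, -0.055 to 0.57 for Echs1, -0.42 to 1.03 for Acaa2, -0.039 to 0.39 for Hsd17b10, -0.15 to 0.47 for Eci1, -0.014 to 0.47 for Eci2, -0.17 to 0.37 for Decr1, -0.25 to 0.25 for Decr2 and -0.54 to 0.58 for Acox3. The cause of these changes was not tested. The remaining 11 genes, among them Pex11a, Abcd3, Acaa1a, Hadh and Hsd17b4, kept a positive difference in every fit.

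Whether same-numbered libraries of the 2 groups pair cannot be settled with 3 vehicle libraries. Deviations of same-numbered libraries from the group means correlated at 0.58, 0.76 and -0.17 for numbers 1, 3 and 4 across 11060 genes. Only vehicle replicate 3 was most like the LIT-927 library of its own number. Vehicle replicate 1 was most like LIT-927 replicate 4, at a correlation of 0.64. With the replicate number as a block, in which LIT-927 replicate 2 has no partner, 28 of 31 genes were higher, the median difference was 0.23, 0 genes were called, Acadl turned to 0.11 and Acadsb to -0.021. Depth limits Cpt1b alone, which rested on 6 to 16 fragments in 6 libraries, while every other oxidation gene had at least 269.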
